A study of Rattus norvegicus with 6 samples.

Results

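A set of 10 genes of blood coagulation and plasminogen activation was followed in rat myocardial RNA-seq: Plau, Plaur, Plat, F3, F13a1, Thbd, Procr, Tfpi, Vwf and F2r. They were picked by name from a table of 33509 genes, and all 10 had enough counts to be tested. The XHT group was 3 libraries of heart tissue from Sprague-Dawley rats with an experimental acute myocardial infarction that were given XHT, which the series title calls Xinhuitong. The MOD group was 3 libraries from the same strain and infarction model without XHT. Both groups therefore carried the infarction, and no library of uninjured heart was analysed here. The labels give neither a dose nor a time point, and do not name the region of myocardium or say that each library is from a separate animal. Spread between the libraries of a group, which may be technical, is what every p-value rests on.

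Clotting starts when tissue factor, the product of F3, meets factor VII of the plasma, and it ends in thrombin, which cuts fibrinogen to fibrin and signals to cells through protease-activated receptors. Endothelium holds this in check with tissue factor pathway inhibitor (Tfpi), thrombomodulin (Thbd) and the endothelial protein C receptor (Procr). Fibrin is cross-linked by factor XIII, whose catalytic A subunit is the product of F13a1, and it is dissolved by plasmin, which urokinase (Plau) and tissue plasminogen activator (Plat) release from plasminogen. Urokinase acts at the cell surface, held by its receptor (Plaur). In the infarcted heart, the urokinase and plasmin system is known for its part in the removal of dead muscle and in scar formation.

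The promoters of Plau, F2r and Plaur are shown because these were the 3 members with the lowest XHT values relative to MOD. Each runs from 250 bases before to 50 bases after the annotated start, 5′ to 3′, from RefSeq on build GRCr8, and capitals mark matches to TGANTCA (the letters bound by AP-1 factors) or GGGCGG (those bound by Sp1) on either strand.
Plau, chr15:3511938-3512237, minus strand: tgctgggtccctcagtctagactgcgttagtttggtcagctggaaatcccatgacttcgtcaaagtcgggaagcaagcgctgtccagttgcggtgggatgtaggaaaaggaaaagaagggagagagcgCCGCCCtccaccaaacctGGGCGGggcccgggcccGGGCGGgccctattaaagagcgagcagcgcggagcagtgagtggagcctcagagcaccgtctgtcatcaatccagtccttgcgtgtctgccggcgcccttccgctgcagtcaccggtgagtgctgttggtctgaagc
F2r, chr2:28620530-28620829, minus strand: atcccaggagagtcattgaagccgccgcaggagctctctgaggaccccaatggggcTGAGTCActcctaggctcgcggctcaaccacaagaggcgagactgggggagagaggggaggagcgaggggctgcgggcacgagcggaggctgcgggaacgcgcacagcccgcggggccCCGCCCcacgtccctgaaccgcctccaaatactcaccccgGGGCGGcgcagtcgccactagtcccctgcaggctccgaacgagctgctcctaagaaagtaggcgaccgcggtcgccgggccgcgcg
Plaur, chr1:89181113-89181412, plus strand: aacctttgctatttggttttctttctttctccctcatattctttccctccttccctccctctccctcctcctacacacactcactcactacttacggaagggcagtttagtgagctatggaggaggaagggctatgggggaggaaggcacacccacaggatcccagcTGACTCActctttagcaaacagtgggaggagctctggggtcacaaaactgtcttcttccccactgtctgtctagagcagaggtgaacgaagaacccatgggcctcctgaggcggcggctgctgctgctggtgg
The Plau window held 3 GGGCGG matches and 0 of TGANTCA, the F2r window 2 and 1, and the Plaur window 0 and 1. In the F2r window TGANTCA began 194 bases before the start, and in the Plaur window 83 bases before it. Over all 33469 promoters of the table, 7.33% held TGANTCA and 33.1% held GGGCGG. A RefSeq promoter was matched for 6 of the 10 genes (Plau, Plaur, F13a1, Procr, Tfpi and F2r), of which 3 held TGANTCA and 4 held GGGCGG. These matches describe the letters of the windows and are not evidence of binding.

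Total counts lay between 17283657 and 17724689 in the XHT libraries and between 16550007 and 17638782 in the MOD libraries. MOD 3 stood apart from MOD 1 and MOD 2: over the 14488 tested genes its Spearman correlation was 0.917, 0.954 and 0.914 with XHT 1, 2 and 3, against 0.931 and 0.926 with MOD 1 and MOD 2, while MOD 1 and MOD 2 correlated at 0.979. The same library held far more heart muscle RNA than the other MOD libraries, with a summed level of 9 cardiomyocyte markers of 23172 CPM (counts scaled to library size, TMM-normalised) against 2597 and 2191 CPM in MOD 1 and MOD 2, and 38775 to 67083 CPM in the XHT libraries. Of 13 macrophage markers, 7 fell and 1 rose, with a summed level of 1027 to 1438 CPM in XHT and 2597 to 4432 CPM in MOD. Of 7 smooth muscle and pericyte markers, 3 fell and 0 rose, and their sum was 897 to 1265 CPM in XHT and 1419 to 2081 CPM in MOD. Of 10 fibroblast markers, 8 fell and 0 rose, and Dcn and Tcf21 were not called. Their sum was 1787 to 4557 CPM in XHT and 22868 to 61680 CPM in MOD. Of the 10 tested endothelial markers, Flt1 rose and Emcn fell, and their sum was 2366 to 2912 CPM in XHT and 1519 to 2411 CPM in MOD, while the endothelial gene Cldn5 had 0 counts in all 6 libraries. Of 10 platelet markers, 8 were too low to test, Gp1bb and Gp5 among them with 0 counts. Pf4 fell, averaging 25.2 CPM in XHT and 58.2 CPM in MOD (log2 fold change -1.21 ± 0.33, edgeR adjusted p = 0.0356). Itga2b had a log2 fold change of 0.86 (edgeR adjusted p = 0.0862), with all XHT libraries above MOD. Among those too low to test, Tubb1 had 54 counts in XHT and 8 in MOD, and Treml1 12 in XHT and 48 in MOD. The platelet list thus did not move as a block. Of 5 hepatocyte markers Alb had 2 counts in all and Apob 0, and 1, Ttr, could be tested. Ttr averaged 15.7 CPM in XHT and 4.35 CPM in MOD, with all XHT libraries above MOD. It was not called (log2 fold change 1.85 ± 0.72, edgeR adjusted p = 0.0884). The 6 neutrophil and 4 tested mesothelial markers gave 0 calls, the 5 mast cell markers 1 in each direction, and the 2 tested erythroid markers 1 higher.

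Of the 10 genes, Plau and F2r were lower in XHT at an edgeR adjusted p under 0.05 and 0 were higher. That is 20% of the members. Of all 14488 tested genes, 16.1% were called lower, 12.4% higher and 28.5% in either direction. The share among the members was thus near the background. The median log2 fold change of the members was -0.05, against -0.02 over all tested genes. In 2 of the 10, again Plau and F2r, the 3 XHT values lay below the 3 MOD values, where 26.6% of all tested genes did so, and in the other 8 the groups overlapped. Groups without overlap in either direction were seen in 51.3% of all tested genes. In bulk tissue, fewer cells of a type and less RNA per cell cannot be told apart for either of them.

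**Figure D1:**
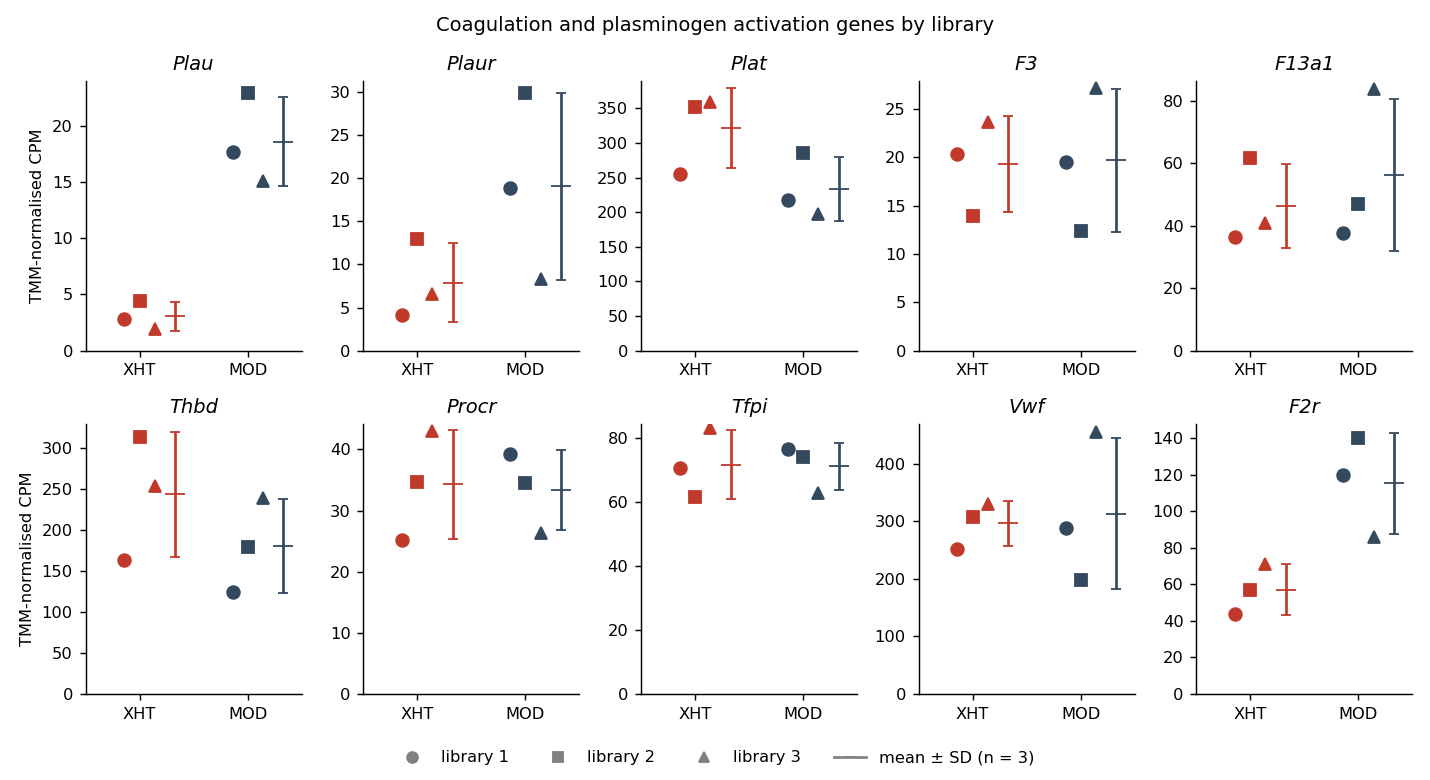
TMM-normalised CPM (vertical axes, from 0) of the 10 genes in each XHT and MOD library, with the mean and SD of each group (n = 3). The XHT and MOD points separate for Plau (1.91 to 4.46 against 15.1 to 22.9 CPM) and for F2r (43.5 to 71.2 against 85.8 to 140.2 CPM) and overlap for the other 8 genes.

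Among the plasminogen activators, Plau, the gene of urokinase, fell to 2.86, 4.46 and 1.91 CPM in XHT 1, 2 and 3, against 17.7, 22.9 and 15.1 CPM in MOD 1, 2 and 3. Every XHT library was below every MOD library, and MOD 3, which lay nearest to XHT over all tested genes, was at the level of the other MOD libraries. The means were 3.07 ± 1.29 CPM in XHT and 18.6 ± 3.97 CPM in MOD (SD, n = 3 each), a log2 fold change of -2.59 ± 0.35 (SE) with an edgeR adjusted p of 0.0105. MOD was thus 6.03-fold higher, with a 95% interval of 3.39 to 10.7. The XHT values rest on 43, 71 and 28 counts per library and the MOD values on 336, 464 and 294. In the deposited table, for which no source names a genome build, Plau lies on chromosome 15 from 3644769 to 3650819 on the minus strand, and no other listed gene overlaps it.

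Of the 13 macrophage markers, the 7 that fell were Cd68, Csf1r, Lyz2, C1qa, Adgre1, Trem2 and Gpnmb, and Cd163, a scavenger receptor, rose (log2 fold change 1.01 ± 0.23, edgeR adjusted p = 0.0227). C1qb, C1qc, Mrc1, Cd14 and Lgals3 were not called, with log2 fold changes of -0.26, -0.21, -0.37, -0.78 and -0.93 (edgeR adjusted p of 0.0535 or more). Lyz2, the lysozyme of macrophages and the marker nearest to Plau in pattern, fell to 296, 436 and 228 CPM in XHT 1, 2 and 3, against 2258, 1851 and 1075 CPM in MOD 1, 2 and 3 (log2 fold change -2.43 ± 0.43, edgeR adjusted p = 0.0143). Fibroblast markers were lower as well, as given above. The part of either cell type in the fall of Plau was not tested.

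Plat, the gene of tissue plasminogen activator and the other enzyme that releases plasmin, did not pass the test. Its levels were 255, 352 and 359 CPM in XHT 1, 2 and 3 and 217, 285 and 197.5 CPM in MOD 1, 2 and 3, so the groups overlapped. The log2 fold change was 0.46 ± 0.25 (edgeR adjusted p = 0.196), and its 95% interval of -0.13 to 1.06 left room for anything between a small decrease and about the size of the F2r change in the opposite direction.

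Within a library, the log2 ratio of Plau to Plat does not depend on the scaling between libraries. It was -6.42, -6.27 and -7.47 in XHT 1, 2 and 3 and -3.61, -3.63 and -3.70 in MOD 1, 2 and 3. The MOD libraries were nearly equal, MOD 3 included, and all XHT libraries lay below them. The mean difference was -3.07 (SD 0.66 in XHT and 0.05 in MOD, with n = 3 in each group). A two-sided exact permutation test gave p = 0.1, the lowest value this design allows, and 0.225 after adjustment over 9 ratios.

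Plaur, the receptor that holds urokinase at the cell surface, was not called. Its levels were 4.12, 12.9 and 6.53 CPM in XHT 1, 2 and 3 and 18.9, 29.9 and 8.28 CPM in MOD 1, 2 and 3. XHT 2 exceeded MOD 3, and the other 2 XHT libraries were below all of MOD. The log2 fold change was -1.27 ± 0.55 (95% interval -2.57 to 0.03, edgeR adjusted p = 0.117). Without MOD 3 it became -1.62 and was called (adjusted p = 0.0304), whereas without MOD 2 it was -0.79 (adjusted p = 0.349). Without XHT 1 and XHT 2 in turn it was -0.95 and -1.82 (adjusted p = 0.283 and 0.0626), so the size rested on single libraries in both groups. Relative to the mean of the 13 macrophage markers in the same library, the log2 ratio of Plaur was -3.42, -2.29 and -3.05 in XHT 1, 2 and 3 and -3.11, -2.25 and -3.76 in MOD 1, 2 and 3, with the groups fully mixed (exact permutation p = 0.8, adjusted 1).

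**Figure D2:**
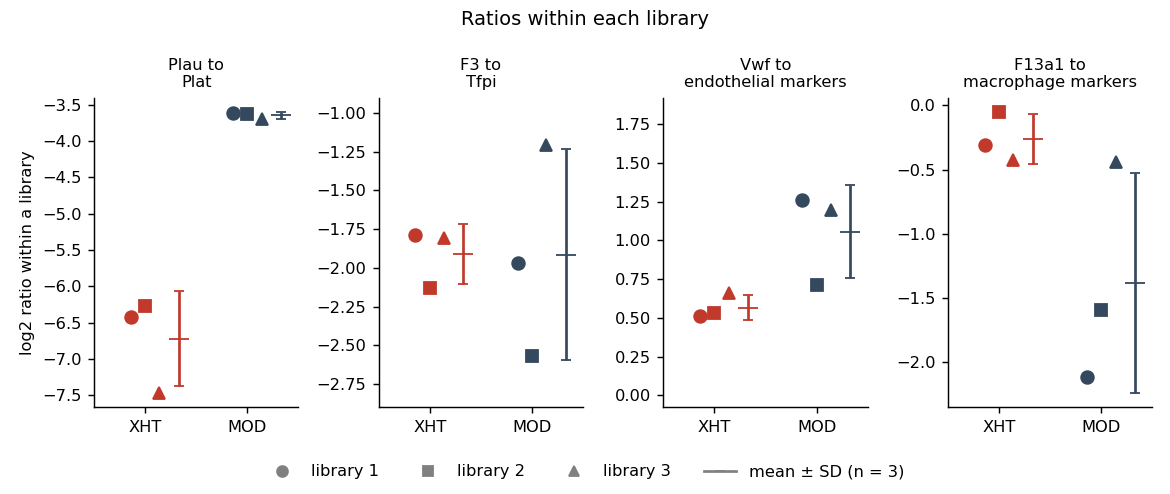
Log2 ratios within each library (vertical axes) for 4 of the 9 ratios computed, with the mean and SD of each group (n = 3). XHT lies below MOD for Plau to Plat, the groups overlap for F3 to Tfpi, and XHT lies below MOD for Vwf to endothelial markers and above it for F13a1 to macrophage markers.

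F2r encodes protease-activated receptor 1, the main thrombin receptor of endothelium, fibroblasts and smooth muscle. It fell to 43.5, 56.6 and 71.2 CPM in XHT 1, 2 and 3, against 119.6, 140.2 and 85.8 CPM in MOD 1, 2 and 3. The highest XHT library was below the lowest MOD library, MOD 3, by a margin smaller than the range within either group. Means were 57.1 ± 13.9 CPM in XHT and 115 ± 27.5 CPM in MOD (SD, n = 3 each), a log2 fold change of -1.01 ± 0.26 with an edgeR adjusted p of 0.0303. MOD was 2.02-fold higher (95% interval 1.32 to 3.08).

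The F2r call was lost when any of XHT 1, XHT 2, XHT 3, MOD 1 or MOD 2 was left out. In that order the edgeR adjusted p-values were 0.106, 0.0667, 0.0633, 0.0954 and 0.103, while the log2 fold change stayed between -1.19 and -0.84. Calls over all genes fell in those fits too. With all 6 libraries, 1792 genes were called higher and 2336 lower. The counts were 4 and 4 without XHT 1, 1472 and 2135 without XHT 2, and 148 and 288 without XHT 3. Without MOD 1 they were 128 and 375, and without MOD 2 they were 227 and 570. In the deposited table F2r lies on chromosome 2 from 26118760 to 26135340 on the minus strand, and the 1 gene that overlaps it had 0 counts. Acta2, the actin of smooth muscle and myofibroblasts, had the pattern most like it among 93 pathway and marker genes (root mean square log2 difference 0.20), closely followed by Cd14 (0.22), a lipopolysaccharide co-receptor on the macrophage list. Acta2 had 129, 210.1 and 218 CPM in XHT 1, 2 and 3 and 528, 529.5 and 285 CPM in MOD 1, 2 and 3. Acta2 itself fell (log2 fold change -1.27 ± 0.34, edgeR adjusted p = 0.0344). Cd14 had 27.3, 39.4 and 34.2 CPM in XHT 1, 2 and 3 and 58.0, 75.0 and 39.9 CPM in MOD 1, 2 and 3, and was not called. The smooth muscle and pericyte list did not move one way: Rgs5, a pericyte gene, had a log2 fold change of 0.92 ± 0.37 (edgeR adjusted p = 0.0935), with all XHT libraries above MOD. The part of smooth muscle, myofibroblast or macrophage RNA in the F2r result was not tested.

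The other thrombin and protease-activated receptors did not pass. F2rl1, the receptor for trypsin-like proteases, had a log2 fold change of 0.01 ± 0.49, F2rl2, a thrombin cofactor receptor, 0.65 ± 0.94, and F2rl3, the lower-affinity thrombin receptor, -0.36 ± 0.48 (edgeR adjusted p = 0.987, 0.616 and 0.59). F2rl2 and F2rl3 rested on 129 and 208 counts over all libraries and F2rl1 on 1654, and F2rl2 ranged between 2 and 37 counts per library. The 95% intervals were wide for all 3, at -1.15 to 1.17 for F2rl1, -1.56 to 2.87 for F2rl2 and -1.50 to 0.78 for F2rl3.

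At the start of clotting, F3, the gene of tissue factor, had 20.3, 13.9 and 23.7 CPM in XHT 1, 2 and 3 and 19.5, 12.4 and 27.2 CPM in MOD 1, 2 and 3. The 2 groups covered almost the same range. The log2 fold change was -0.03 ± 0.32 (95% interval -0.79 to 0.73, edgeR adjusted p = 0.954). That interval does not reach the estimates of -2.59 for Plau and -1.01 for F2r, but it overlaps the F2r interval of -1.62 to -0.40. Its inhibitor Tfpi had 70.5, 61.5 and 83.2 CPM in XHT 1, 2 and 3 and 76.7, 74.1 and 62.9 CPM in MOD 1, 2 and 3, again overlapping. Tfpi was the most narrowly bounded member, with a log2 fold change of 0.01 ± 0.18 and a 95% interval of -0.41 to 0.43 (edgeR adjusted p = 0.971). The log2 ratio of F3 to Tfpi within a library averaged -1.91 ± 0.19 in XHT and -1.91 ± 0.68 in MOD (SD, n = 3 each; exact permutation p = 1).

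The protein C branch was represented by 2 endothelial surface proteins. Thbd, thrombomodulin, which turns thrombin toward activating protein C, had 163, 314 and 253 CPM in XHT 1, 2 and 3 and 124, 179 and 238 CPM in MOD 1, 2 and 3. The lowest XHT library lay below the middle of MOD and the highest above all of it, with a log2 fold change of 0.43 ± 0.33 (95% interval -0.36 to 1.22, edgeR adjusted p = 0.345). Procr, which presents protein C to thrombomodulin, had 25.1, 34.7 and 43.0 CPM in XHT 1, 2 and 3 and 39.2, 34.5 and 26.4 CPM in MOD 1, 2 and 3. Its groups spanned the same levels (log2 fold change 0.04 ± 0.25, 95% interval -0.54 to 0.61, edgeR adjusted p = 0.918).

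Vwf encodes von Willebrand factor, the multimer that tethers platelets and carries factor VIII. It had 252, 308 and 329.7 CPM in XHT 1, 2 and 3 and 288, 198 and 456 CPM in MOD 1, 2 and 3, with MOD 2 lowest and MOD 3 highest of all 6 libraries. The log2 fold change was -0.08 ± 0.33 (95% interval -0.87 to 0.70, edgeR adjusted p = 0.869). Without MOD 3 it was 0.30 and still not called (adjusted p = 0.32).

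Endothelial markers were not flat across libraries, so the 4 endothelial members were also set against them within each library. Against the mean of the 10 tested endothelial markers, the log2 ratio of Vwf was 0.51, 0.53 and 0.66 in XHT 1, 2 and 3 and 1.26, 0.71 and 1.20 in MOD 1, 2 and 3. XHT lay below MOD by a mean of 0.49 on this scale without overlap (difference -0.49; exact permutation p = 0.1, adjusted 0.225). The markers did not move as a block: Flt1, a VEGF receptor, rose by 2.10 ± 0.51 on the log2 scale and Emcn, a sialomucin of veins and capillaries, fell by 0.72 (edgeR adjusted p = 0.0267 and 0.026). For Thbd, Procr and Tfpi the same differences were -0.05, -0.46 and -0.48, and the groups overlapped (exact permutation p = 0.9, 0.4 and 0.3).

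F13a1, the catalytic subunit of the clot-stabilising transglutaminase, is made by tissue macrophages and megakaryocytes. It had 36.4, 61.7 and 41.0 CPM in XHT 1, 2 and 3 and 37.7, 47.0 and 83.7 CPM in MOD 1, 2 and 3. MOD 3 was highest, XHT 2 was next, and the groups overlapped (log2 fold change -0.28 ± 0.34, 95% interval -1.07 to 0.52, edgeR adjusted p = 0.553). Without MOD 3 the log2 fold change turned to 0.15 (adjusted p = 0.662). Against the mean of the 13 macrophage markers, 7 of which fell, its log2 ratio was -0.31, -0.05 and -0.43 in XHT 1, 2 and 3 and -2.12, -1.60 and -0.44 in MOD 1, 2 and 3. MOD 3 lay next to XHT, and the difference of 1.12 had an exact permutation p of 0.1 (adjusted 0.225).

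**Figure D3:**
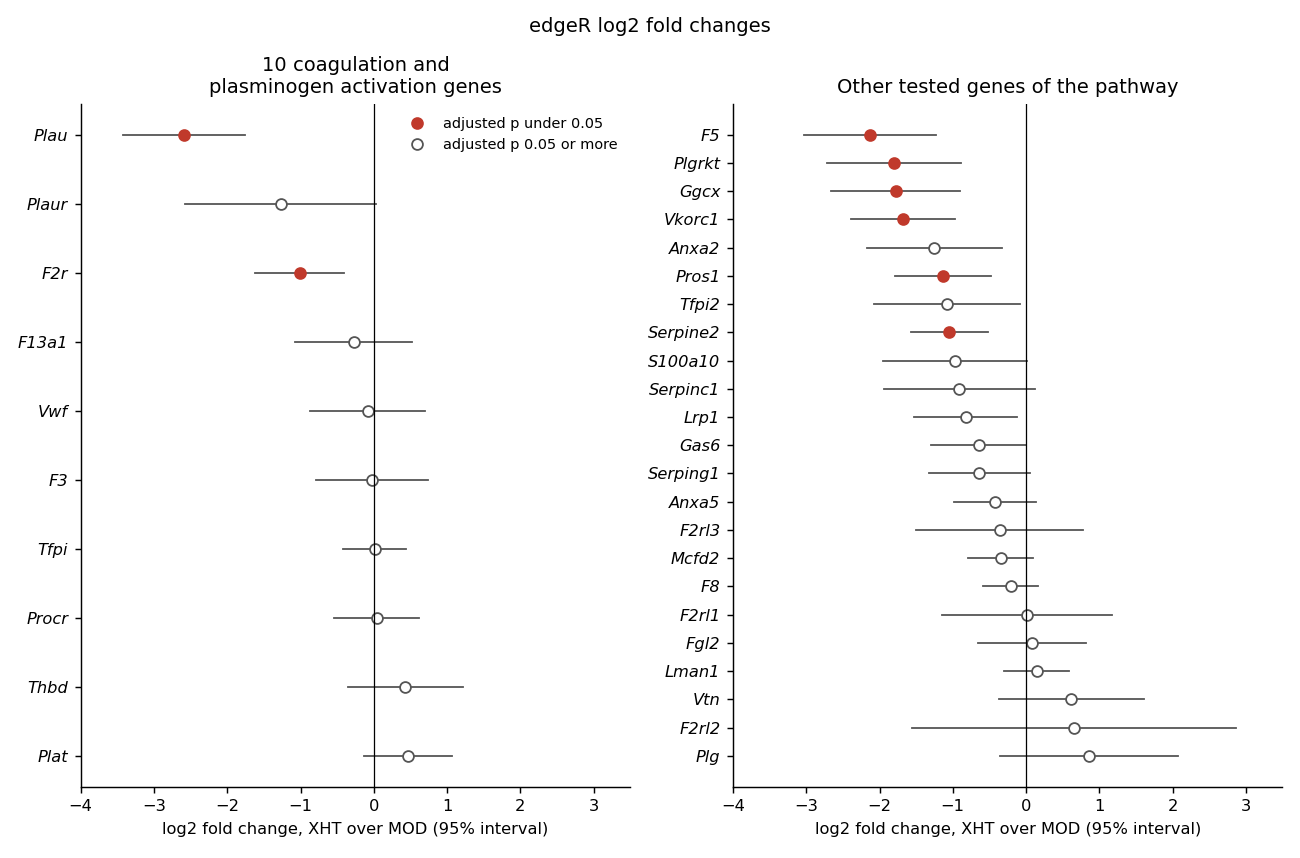
Log2 fold change of XHT over MOD (horizontal axis, with the 95% interval as a line) by edgeR for the 10 members, left, and other tested genes of the pathway, right; filled points have an adjusted p under 0.05. Plau (-2.59) and F2r (-1.01) are called on the left, and 6 genes from F5 (-2.13) to Serpine2 (-1.05) on the right, all lower in XHT.

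Of 44 other genes of the pathway, 24 could be tested, 6 fell and 0 rose. The 25% called lower stands beside 16.1% of all tested genes, and the 0 called higher beside 12.4%. The median log2 fold change of the 24 was -0.64, against -0.02 over all. In 12 of the 24 all XHT libraries were below all MOD libraries, beside 26.6% of all tested genes. In 0 of the 24 all were above, beside 24.7% of all tested genes. None of the 6 remained called without XHT 1, without XHT 3 or without MOD 1. Other pathway genes called lower numbered 10 without XHT 2, 3 without MOD 2 and 11 without MOD 3. Of all tested genes, 0.027%, 1.92% and 2.55% were called lower without XHT 1, XHT 3 and MOD 1. That share was 14.2% without XHT 2, 3.87% without MOD 2 and 22.9% without MOD 3.

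The 6 included Vkorc1 and Ggcx, enzymes of the vitamin K cycle, which adds the gamma-carboxyl groups that several clotting proteins need. Vkorc1, the vitamin K epoxide reductase that warfarin blocks, fell to 19.5, 29.6 and 24.5 CPM in XHT 1, 2 and 3, against 105, 80.7 and 50.1 CPM in MOD 1, 2 and 3 (log2 fold change -1.68 ± 0.30, edgeR adjusted p = 0.0143). Ggcx, the carboxylase itself, fell to 20.2, 35.9 and 16.0 CPM in XHT 1, 2 and 3, against 99.8, 95.7 and 51.7 CPM in MOD 1, 2 and 3 (log2 fold change -1.78 ± 0.37, edgeR adjusted p = 0.0193). In both genes the groups were apart, and MOD 3 was the lowest of MOD. Pros1, whose product protein S is carboxylated by this cycle and is the cofactor of activated protein C, fell to 47.1, 76.1 and 46.5 CPM in XHT 1, 2 and 3, against 142, 140.4 and 89.4 CPM in MOD 1, 2 and 3 (log2 fold change -1.13 ± 0.28, edgeR adjusted p = 0.0279).

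F5, the cofactor of factor Xa, fell to 2.13, 1.57 and 0.95 CPM in XHT 1, 2 and 3, against 8.80, 6.22 and 5.40 CPM in MOD 1, 2 and 3 (log2 fold change -2.13 ± 0.39, edgeR adjusted p = 0.0145). It rests on 71 counts in XHT and 398 in MOD. Plgrkt, a membrane receptor for plasminogen, fell to 3.72, 4.33 and 1.84 CPM in XHT 1, 2 and 3, against 15.1, 11.5 and 8.18 CPM in MOD 1, 2 and 3 (log2 fold change -1.81 ± 0.39, edgeR adjusted p = 0.0199). Serpine2, the gene of the thrombin inhibitor protease nexin 1, fell to 64.8, 101 and 74.3 CPM in XHT 1, 2 and 3, against 187, 152 and 158 CPM in MOD 1, 2 and 3 (log2 fold change -1.05 ± 0.22, edgeR adjusted p = 0.0198).

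Anxa2 and S100a10, the pair that binds plasminogen and Plat at the cell surface, did not pass, with log2 fold changes of -1.25 ± 0.39 and -0.97 ± 0.42 (edgeR adjusted p = 0.0504 and 0.113). All 3 XHT values of Anxa2 (186, 361 and 206 CPM) were below the 3 MOD values (628, 790.5 and 375 CPM). Anxa2 was called with total-count scaling, no count filter and the DESeq2 Wald test (adjusted p = 0.0236, 0.0497 and 0.00877), and without XHT 2 or MOD 3 (0.0376 and 0.00815). S100a10 was called with total-count scaling (0.0476) and without MOD 3 (0.0187). Tfpi2, a Kunitz-type inhibitor of plasmin, had a log2 fold change of -1.09 ± 0.42 (edgeR adjusted p = 0.09), and was called with total-count scaling and without XHT 2 (0.0429 and 0.0297). Fgl2, a membrane prothrombinase, had one of 0.08 ± 0.32 (edgeR adjusted p = 0.863). Plg, the gene of plasminogen, was barely present, with 36 counts in XHT and 25 in MOD (log2 fold change 0.86 ± 0.52, edgeR adjusted p = 0.23).

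Several factors, most of them known mainly as liver products, had 0 counts or few. F9, F11, F13b, Fga, Serpind1, Serpina5, Cpb2 and Hrg had 0 counts in all 6 libraries, where a count of 0 allows up to 3 counts per library, or 0.188 to 0.204 CPM in XHT and 0.148 to 0.158 CPM in MOD. F2, the gene of prothrombin, had 4 counts in XHT and 0 in MOD, and F7 had 1 in XHT and 5 in MOD. Other genes that the liver also expresses were well counted here: Vtn, the gene of vitronectin, averaged 64.5 CPM in XHT and 41.9 CPM in MOD, and Serping1, the gene of C1 inhibitor, 205 CPM in XHT and 319 CPM in MOD, and neither was called (edgeR adjusted p = 0.287 and 0.136). F10 was not tested, with 5 counts in XHT and 68 in MOD, and all its XHT counts per library (1, 3 and 1) were below those of MOD (23, 7 and 38). Adamts13 and Kng1 were not found under these symbols and were not analysed here.

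Levels of different genes were compared per length, with the deposited FPKM. In XHT the order of mean FPKM was Plat, Thbd, Vwf, Procr, Tfpi, F2r, F13a1, F3, Plaur and Plau. Plat led with 126 ± 23.1 FPKM in XHT and 89.5 ± 18.5 FPKM in MOD, followed by Thbd with 66.4 ± 20.6 FPKM in XHT and 48.1 ± 15.2 FPKM in MOD (SD, n = 3 each). Neighbours from Vwf down to Plaur overlapped in range in XHT. Plau was last in both groups, with 1.63 ± 0.67 FPKM in XHT and 9.66 ± 2.15 FPKM in MOD. Its neighbour Plaur stood at 7.63 ± 4.38 FPKM in XHT, without overlap with Plau, whereas in MOD Plau overlapped the next gene up, F3, at 10.5 ± 3.88 FPKM. F2r stood below Tfpi in XHT, with 16.7 ± 4.17 FPKM, and stood above Procr in MOD, with 32.8 ± 8.05 FPKM.

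**Figure D4:**
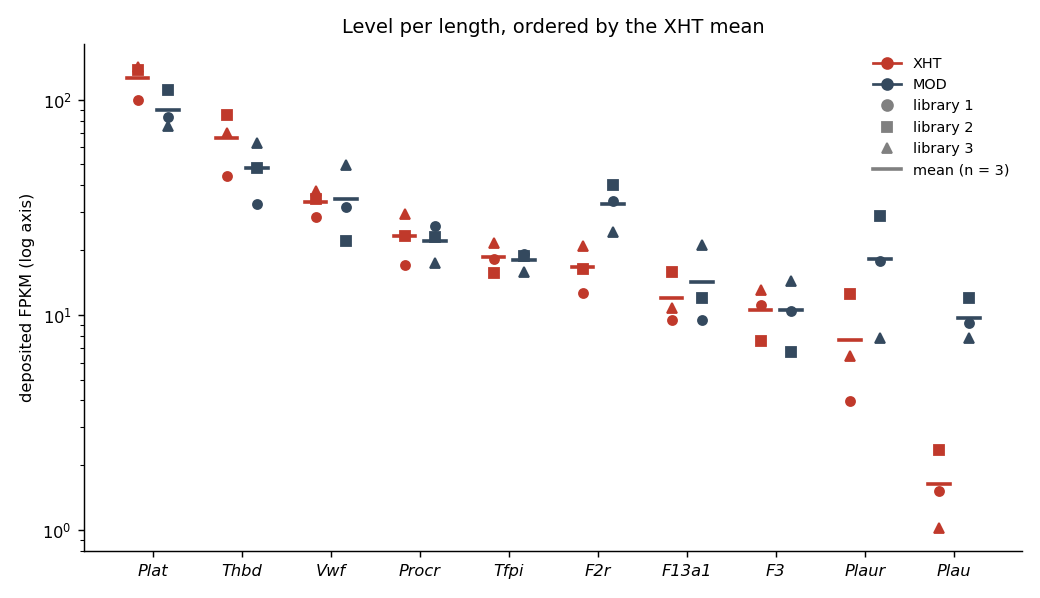
Deposited FPKM (vertical axis, log scale) of the 10 genes in each library, with group means as short horizontal lines, ordered from left by the XHT mean. Plat is highest in both groups (126 FPKM in XHT and 89.5 in MOD) and Plau lowest, at 1.63 FPKM in XHT and 9.66 in MOD.

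The members did not vary as a block across the 6 libraries. As a measure of likeness, the root mean square difference of mean-centred log2 CPM was smallest between Procr and Tfpi (0.22), then between F3 and Vwf (0.26) and between Plat and Procr (0.30). It was largest between Plau and Thbd (1.60) and between Plau and Plat (1.58). Among 93 tested pathway and marker genes, the nearest to Plau were Lyz2 (0.28) and Cd68 (0.45), both macrophage markers, and the nearest to Plaur were Anxa2 (0.30) and S100a10 (0.33). Thbd was nearest to Erg (0.25) and Cdh5 (0.27), both endothelial, and Tfpi to F8 (0.17) and C1qc (0.21). F8, the gene of factor VIII, had a log2 fold change of -0.21 ± 0.16 (edgeR adjusted p = 0.334). Plat was nearest to Lman1 and Esam, F3 to Wt1 and Cdh5, F13a1 to Cspg4 and Tie1, Vwf to Wt1 and Erg, and Procr to C1qc and Egfl7, all within 0.39. These likenesses are descriptions over 6 libraries of 2 groups.

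In the authors' deposited table, Plau and F2r were the only 2 members with an adjusted p under 0.05, with log2 fold changes of -2.56 and -0.98. That comparison is of the same 6 libraries and is not separate evidence. Its calls over all genes were not counted here. The DESeq2 Wald fit made here called 18.9% of all tested genes lower. That adjusted p was 5.76e-09 for Plau and 0.0103 for F2r, and 0.0811 for Plaur, in the authors' deposited table.

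**Figure D5:**
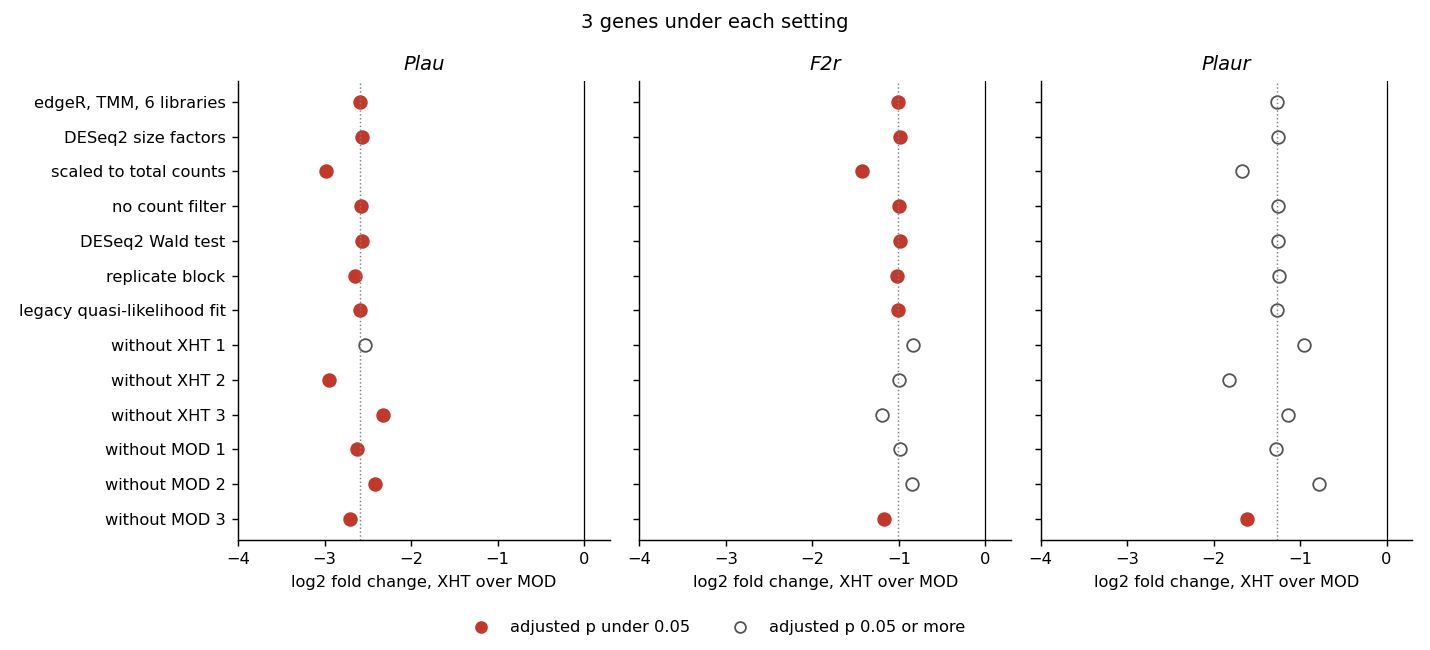
Log2 fold change of XHT over MOD (horizontal axis) for Plau, F2r and Plaur under each setting (rows); filled points have an adjusted p under 0.05 and the dotted line marks the value of the 6-library edgeR fit. Plau stays between -2.98 and -2.33 and is not called without XHT 1, F2r stays between -1.42 and -0.84, and Plaur is called in the fit without MOD 3.

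Plau kept its direction under all 12 other settings and its call under 11 of them. The exception was the fit without XHT 1, where its log2 fold change was -2.53 with an adjusted p of 0.0549 and only 4 genes were called higher and 4 lower in all. Without XHT 3 its adjusted p was 0.0477, and without MOD 3 it was 0.00129. Libraries scaled to total counts gave -2.98 for Plau and -1.42 for F2r, where the median of all tested genes was itself -0.42.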

How the data were processed

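The RNA-seq libraries were made from poly(A)-selected RNA with a dUTP second strand, per the labels' protocols. The submitters' processing notes name DESeq2 1.16.1, featureCounts 1.5.0-p3, StringTie 1.3.3b and HISAT2 2.0.5. No genome build, strand setting or UMI step is given. The authors deposited raw counts per gene, which were tested. The deposited FPKM values equal counts over gene length and a library constant, and were used for levels between genes. The log2 fold changes, p-values and group means (a signal scale of normalised counts) of the authors' comparison were deposited too, and are quoted only where named.

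XHT was tested against MOD with edgeR 4.0.16 (R 4.3.3). Genes passed filterByExpr with a total of at least 15 and a count minimum of 10. TMM factors were 0.83 to 1.22, the quasi-likelihood fit was robust and had no covariates, with Benjamini-Hochberg adjustment over all 14488 tested genes with a threshold of 0.05. Intervals are 95% from that fit. Log2 CPM used a prior count of 2. Where identifiers shared a symbol, the best counted was taken. Counting floors (3 counts) cover counting error only. The fit was checked on simulated counts with a common dispersion for all genes and no outlying library. The permutation test was checked on short made-up sets of values.

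The members, the other pathway genes (44), the marker lists (11), the ratios and the rule for named genes were chosen with earlier results of these data known. Under that rule all 10 members are given, with every called gene of the pathway list and further listed genes whatever their test, 1 of which is not reported here, nor is its ratio; likeness is given for the 2 nearest listed genes. The marker genes given with values, and Vtn, Serping1 and F8, were singled out after their values were seen. Alternatives were DESeq2 size factors, total-count scaling, no count filter, DESeq2 1.42.0 (Wald test), a replicate block, each library left out, and a prior count of 0.5 for ratios. The legacy quasi-likelihood fit was added after the data were seen.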

Additional observations from a re-analysis of the deposited data

How the results depend on the processing

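Under DESeq2 size factors, scaling to total counts, no count filter, the DESeq2 Wald test, the replicate block and the legacy quasi-likelihood fit, the members called stayed Plau and F2r, and 0 were higher. Scaling to total counts called 925 genes higher and 4320 lower, 15 of them other pathway genes, and the DESeq2 Wald test called 2718 genes higher. Leaving out 1 library gave 4 to 3487 genes higher and 4 to 3421 lower, 0 to 3 members lower and 0 higher, and 0 to 11 other pathway genes lower and 0 to 1 higher. Members near 0 changed sign: F3 to 0.0017 with DESeq2 size factors, 0.0015 with the DESeq2 Wald test and 0.0088 with the replicate block, and Procr to -0.36 and Tfpi to -0.39 with total counts. With total counts Fgl2 was -0.31 and F2rl1 -0.38, and with the replicate block F2rl1 log2 fold change was -0.088. Without 1 library, log2 fold changes ranged from -0.27 to 0.29 for F3, -0.53 to 0.15 for F13a1, -0.15 to 0.23 for Procr, -0.10 to 0.12 for Tfpi, -0.32 to 0.30 for Vwf, -0.26 to 0.29 for Fgl2 and -0.26 to 0.41 for F2rl1. Ratio differences ranged from -3.30 to -2.70 for Plau to Plat, -0.32 to 0.36 for F3 to Tfpi, -0.66 to -0.39 for Vwf, -0.21 to 0.13 for Thbd, -0.86 to -0.21 for Procr and -0.81 to -0.30 for Tfpi to endothelial markers, and -0.24 to 0.51 for Plaur and 0.76 to 1.59 for F13a1 to macrophage markers. The cause of these changes was not tested. Replicate numbers are not stated to pair the libraries, and deviations of same-numbered libraries correlated at -0.07, 0.25 and 0.12, so the block, which called 2101 genes higher and 2309 lower, with Anxa2 (adjusted p = 0.0300) and Tfpi2 (0.0326) among them, is given only here. Low counts stood behind Plau in XHT (28 to 71 per library), Plg, F2rl2, F2rl3 and F10, and whether depth set their errors was not tested.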
